A study of Homo sapiens with 4 samples.

Results

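Interferon-stimulated genes are the genes that cells switch on when an interferon binds its receptor. The set described here holds 47 of them, picked by name as known interferon response genes, with earlier results of these data known. They were taken as the rows with those symbols among the 67062 rows of the gene count table. All 47 symbols were found. Poly(A) RNA was sequenced from OCI-AML3 cells, a line grown from human acute myeloid leukaemia and positive for mutant nucleophosmin (NPM1c+). The cells received PIG-LONA, a retrovirus that expresses the long noncoding RNA LONA from an RNA polymerase II promoter, or PIG-EMPTY, the same retrovirus without the insert. Each group holds 2 libraries from 2 independent transductions. Cells of both groups also carried puromycin resistance and GFP from the vector and were sorted for GFP, so no untransduced cells stand beside them. P-values therefore measure the spread between transductions of 1 line, and the time between transduction and harvest is not given in the sources used here.

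Type I interferons bind the receptor formed by IFNAR1 and IFNAR2, and the attached kinases JAK1 and TYK2 activate a complex that contains STAT2 and IRF9. The complex binds a promoter element called the interferon-stimulated response element (ISRE), whereas interferon gamma acts mainly through the gamma-activated site (GAS). The induced proteins sense foreign RNA and DNA, block virus entry, replication and release, and slow growth. Myeloid cells keep many of these genes on at a low level without infection.

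Libraries held between 29819572 and 38358442 counts, and the biological coefficient of variation over all genes and both groups was 2.95%. Replicate counts lay further apart in PIG-LONA cells, with a mean chi-square per gene of 4.67 against 1.76 in PIG-EMPTY cells. Of 15918 genes with enough counts to test, 6.44% passed an adjusted p of 0.05, 3.51% lower and 2.93% higher in PIG-LONA cells. Genes of chromosome 6 had a median log2 fold change of 0.17 against 0.0011 over all tested genes, and none of the 47 genes lies on chromosome 6. The row of LONA itself was not matched by name and its level is not analysed here. All 12 myeloid blast markers were expressed, with summed levels of 2480 and 2347 CPM (counts scaled to the library total, TMM-adjusted) in PIG-LONA cells against 2376 and 2307 CPM in PIG-EMPTY cells. FLT3, PRTN3 and AZU1 were higher in PIG-LONA cells. LYZ was lower, with 26.0 and 27.1 CPM in PIG-LONA cells against 52.9 and 34.2 CPM in PIG-EMPTY cells, and so was SPI1. DESeq2 called 0 of the 12 markers lower and 3 higher, against 2.97% of all genes called either way. Summed counts of T cell, erythroid and epithelial markers were at most 3 in any library. B cell markers summed to 26 to 35 counts, mostly from CD79A, and fibroblast markers to 16 to 29. Among markers of plasmacytoid dendritic cells, which make much interferon, CLEC4C, LILRA4 and IL3RA had at most 3 counts. Only TCF4 had enough counts to test. Reads that match more than 1 place may be dropped in counting, so these low counts do not show that IL3RA is silent. The part of these marker differences in the results below was not tested, and in bulk RNA fewer cells of a type and less RNA per cell cannot be told apart.

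The 47 genes covered a wide range of levels. Per length, as CPM per kilobase of exon averaged over the 4 libraries, 4 genes were at 10 or more, 24 lay between 1 and 10 and 19 were under 1. The median of the 42 tested members was 2.59 CPM per kilobase, against 4.19 over 15780 tested genes with a known length. BST2, which encodes tetherin and holds budding virus particles at the cell surface, was the highest at 141 CPM per kilobase. IFITM2, a membrane protein that hinders virus entry, followed at 54.1. ADAR, which edits adenosine in double-stranded RNA, had 44.2, and IFI16, a DNA sensor of the nucleus, had 21.4. These levels put BST2 at the 98.6th and IFI16 at the 85.3rd percentile of tested genes. Induced genes often used as markers of the response were spread over this range, with IFI6 at 8.75, ISG15 at 4.58 and IFIT3 at 3.75 CPM per kilobase, and IFIT1, RSAD2, MX1 and IFI27 under 1 in every library.

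**Figure D1:**
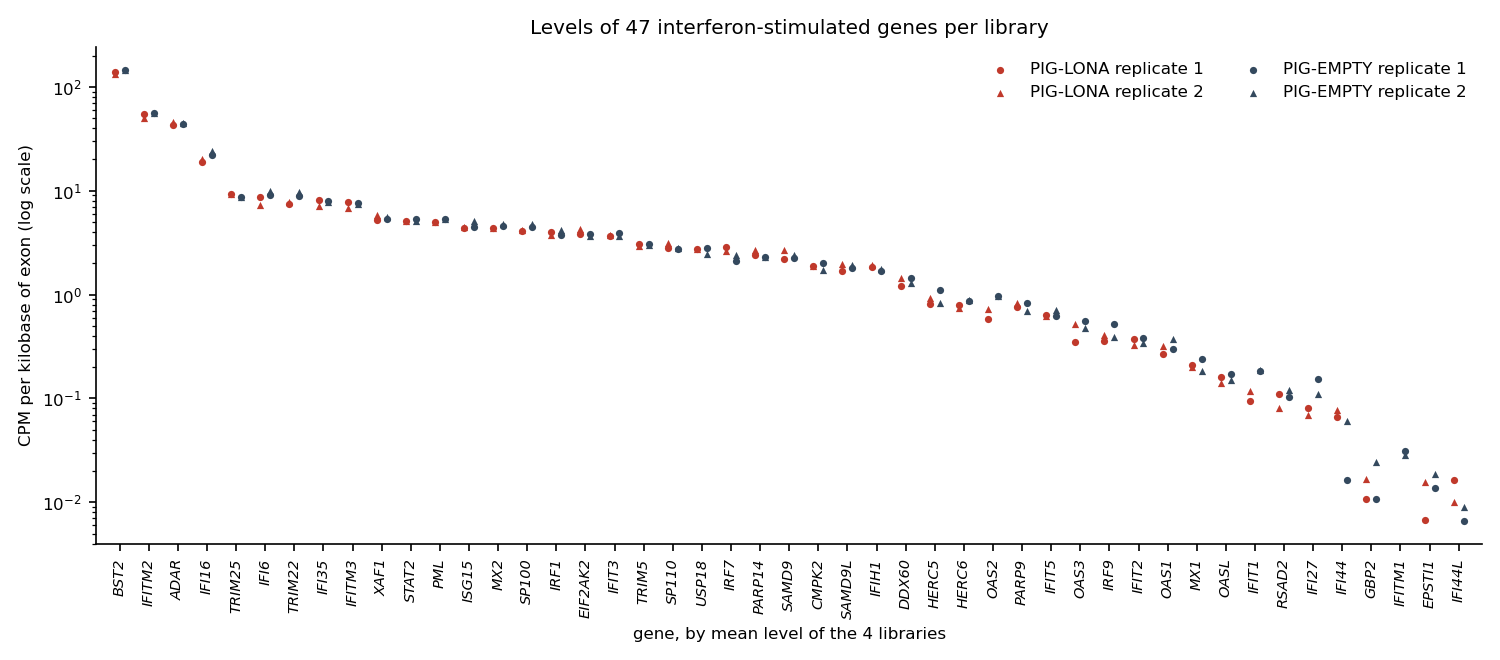
Level of each of the 47 genes in CPM per kilobase of exon (log axis), ordered by the mean of the 4 libraries; red symbols are PIG-LONA and blue symbols PIG-EMPTY libraries, circles replicate 1 and triangles replicate 2. The libraries of a gene lie close together compared with the range from BST2 at 141 down to genes with single reads; IFITM1 had no count in either PIG-LONA library, and a level of 0 is not drawn.

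Counts of 5 genes were too low to test, with at most 6 in any library. IFITM1 had 0 and 0 counts in PIG-LONA libraries and 1 and 1 in PIG-EMPTY libraries, and a count of 0 allows up to 0.100 and 0.0780 CPM at these depths. IFI44 had 4 and 6 counts against 1 and 4, and IFI44L had 5 and 4 against 2 and 3. EPSTI1 had 1 and 3 counts against 2 and 3, and GBP2 had 2 and 4 against 2 and 5. All 5 were at or near the floor of detection in both groups, and no fold change is given for them.

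Most members with a listed promoter window hold a match to the ISRE core, and binding to it was not measured. RefSeq windows on GRCh38.p14, from 250 bases before to 50 bases after a listed transcript start, were found for 37 members. The ISRE core was searched as GAAA, any 2 bases and GAAA again, and the GAS core as TTC, any 3 bases and GAA, each on both strands and with overlapping matches counted. An ISRE core was present in 27 of 52 member windows (51.9%), against 3.57% of all 35116 windows of the same length. By gene it was present in 23 of 37 members (62.2%), against 4.38% of 27305 genes. A GAS core was present in 12 of the 37 members (32.4%), against 9.38% of all genes. In windows of BST2, EPSTI1, IFI27, IFITM1 and MX1 a GAS match shares bases with an ISRE core. The ISRE and GAS shares are therefore not independent. Members are known interferon targets, so this describes how they are built rather than a response in these cells. Windows are shown for BST2, the most abundant member, for IFIT1 and ISG15, textbook targets, for IRF1, whose textbook element is the GAS, and for IFI16, which was lower in PIG-LONA cells. They read 5′ to 3′ on the gene's strand, with ISRE core matches in capitals for the first 4 (none in IFI16) and the GAS core match in capitals for IRF1.
BST2: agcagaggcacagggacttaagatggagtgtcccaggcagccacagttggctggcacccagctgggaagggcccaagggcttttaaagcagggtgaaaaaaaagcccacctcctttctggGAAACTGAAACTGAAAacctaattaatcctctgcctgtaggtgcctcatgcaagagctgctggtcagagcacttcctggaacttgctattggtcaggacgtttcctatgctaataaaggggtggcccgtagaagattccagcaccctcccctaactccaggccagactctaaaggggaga
IFIT1: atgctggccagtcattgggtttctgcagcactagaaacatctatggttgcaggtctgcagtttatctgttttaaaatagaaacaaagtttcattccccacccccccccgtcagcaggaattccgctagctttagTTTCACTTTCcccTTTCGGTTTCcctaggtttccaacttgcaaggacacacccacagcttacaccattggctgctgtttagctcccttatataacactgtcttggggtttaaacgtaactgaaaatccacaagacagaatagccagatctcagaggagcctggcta
ISG15: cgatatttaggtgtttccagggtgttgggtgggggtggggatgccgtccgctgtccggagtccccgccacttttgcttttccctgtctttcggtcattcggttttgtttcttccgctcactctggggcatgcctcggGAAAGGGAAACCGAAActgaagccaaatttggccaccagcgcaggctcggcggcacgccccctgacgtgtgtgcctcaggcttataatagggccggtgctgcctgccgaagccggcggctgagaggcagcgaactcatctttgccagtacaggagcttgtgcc
IFI16: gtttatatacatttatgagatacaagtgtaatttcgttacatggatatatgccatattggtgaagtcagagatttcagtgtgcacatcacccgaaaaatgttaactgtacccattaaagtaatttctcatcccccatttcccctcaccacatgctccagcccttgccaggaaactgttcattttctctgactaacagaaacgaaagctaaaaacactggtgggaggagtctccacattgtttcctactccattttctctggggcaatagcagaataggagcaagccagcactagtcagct
IRF1: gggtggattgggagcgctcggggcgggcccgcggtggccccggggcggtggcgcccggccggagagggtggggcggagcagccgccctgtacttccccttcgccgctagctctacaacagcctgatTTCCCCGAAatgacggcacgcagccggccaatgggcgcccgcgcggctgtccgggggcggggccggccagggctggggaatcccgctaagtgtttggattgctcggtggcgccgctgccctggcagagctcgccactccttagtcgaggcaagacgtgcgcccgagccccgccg

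BST2, at chr19:17405581-17405880 on the minus strand, and ISG15, at chr1:1013247-1013546 on the plus strand, each hold 2 overlapping ISRE cores on the coding strand. IFIT1, at chr10:89392373-89392672 on the plus strand, holds 2 cores that read on the opposite strand. IRF1, at chr5:132490724-132491023 on the minus strand, holds 1 GAS core. IFI16, at chr1:159009657-159009956 on the plus strand, has 2 windows in the table and neither holds an ISRE core. Across the 23 members with a match, 41 ISRE cores were found in 1 window per member, 34 of them starting within the 150 bases before the transcript start. No window was listed for GBP2, IFIT2, IFITM2, IRF7, MX2, OAS2, OASL, PML, TRIM22 and USP18.

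**Figure D2:**
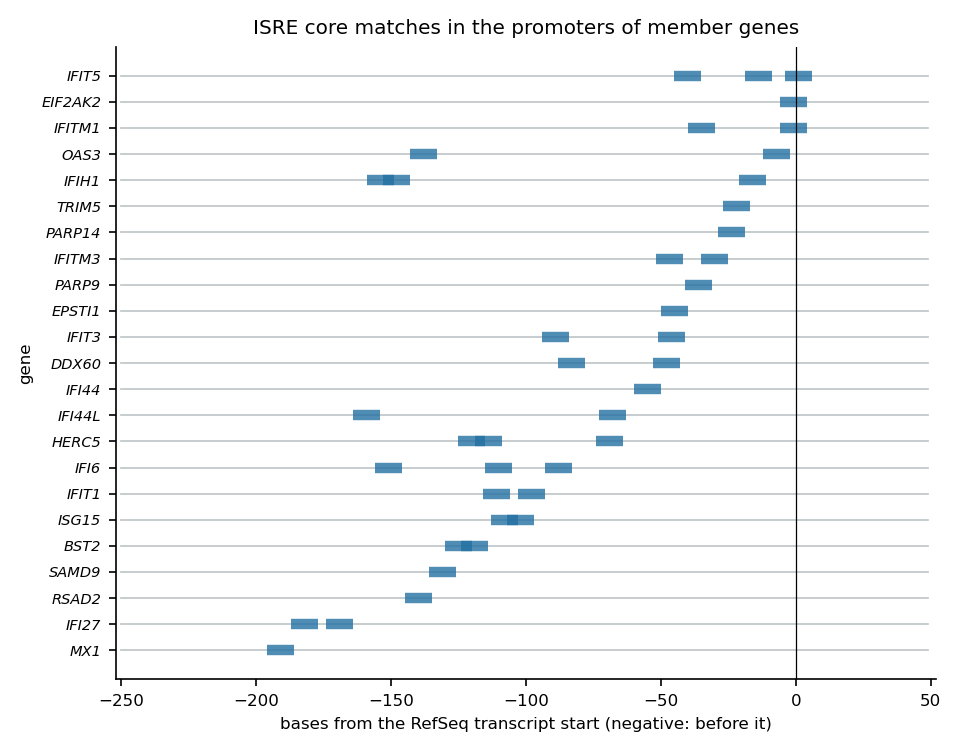
Positions of ISRE core matches (blue bars) in 1 promoter window per member, in bases from the RefSeq transcript start (vertical line), for the 23 members with a match. Most bars lie in the 150 bases before the start, and the median first base is 93 bases before it.

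Members with an ISRE core were expressed at a lower level than members without one, with medians of 0.917 and 4.15 CPM per kilobase. Of the 23 members with the core, 12 were under 1 CPM per kilobase, against 3 of the 14 without it. Between PIG-LONA and PIG-EMPTY cells, 19 members with the core could be tested and had a median log2 fold change of -0.055, and the 14 members without it had a median of -0.032. Of the 19, 0 passed the adjusted p, and of the 14, 1 did (IFI16), against 6.44% of all tested genes. The other 2 called members, OAS2 and TRIM22, have no window, so whether they hold the core was not looked at. These are descriptions without a test.

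The comparison of PIG-LONA with PIG-EMPTY cells asks whether the noncoding RNA changes these genes. Of 42 tested members, 3 were lower in PIG-LONA cells and 0 were higher, by the quasi-likelihood test of edgeR with Benjamini-Hochberg adjustment over all 15918 genes. The 3 are IFI16, TRIM22 and OAS2. They make up 7.14% of the tested members, against 6.44% of all genes called in either direction and 3.51% called lower. The count is too small to set the members apart from the rest. At an unadjusted p under 0.05, 9 members were lower and 3 higher, 28.6% in all against 18.7% of all genes. DESeq2 called 2 members lower and 0 higher, against 2.97% of all genes called either way. With limma-voom 3 were lower and 0 higher, against 6.26% of all genes called either way. All of these calls were among the same 3 genes.

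IFI16 senses DNA in the nucleus and limits viral transcription. The gene (ENSG00000163565) lies at chr1:158999968-159055155 on the plus strand, on hg38. It had 101 and 107 CPM in PIG-LONA libraries, against 118 and 128 CPM in PIG-EMPTY libraries. Both PIG-LONA libraries were below both PIG-EMPTY libraries. The means were 104 ± 4.41 and 123 ± 7.47 CPM (SD, n = 2 each), with a log2 fold change of -0.24 ± 0.05 (SE; adjusted p = 0.00288).

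TRIM22, a ubiquitin ligase that restrains several viruses, lies at chr11:5689689-5737089 on the plus strand. It had 44.7 and 47.3 CPM in PIG-LONA libraries, against 53.8 and 58.7 CPM in PIG-EMPTY libraries. The groups did not overlap. The means were 46.0 ± 1.84 and 56.2 ± 3.43 CPM, with a log2 fold change of -0.29 ± 0.05 (adjusted p = 0.0018).

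OAS2 makes the oligoadenylate messenger that activates RNase L, which degrades RNA. It lies at chr12:112978395-113011723 on the plus strand. It had 3.64 and 4.55 CPM in PIG-LONA libraries, from 109 and 175 counts, against 6.01 and 6.07 CPM in PIG-EMPTY libraries, from 179 and 197 counts. The PIG-LONA libraries were lower and further apart than the PIG-EMPTY libraries. The log2 fold change was -0.54 ± 0.14 (adjusted p = 0.0193), the largest in size among the 32 tested members with at least 100 counts in every library. With DESeq2 the adjusted p of OAS2 was 0.137, and without PIG-LONA replicate 1 it was 0.0525.

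None of these 3 calls held without PIG-EMPTY replicate 2, where the adjusted p was 0.183 for IFI16, 0.0868 for TRIM22 and 0.0731 for OAS2. The log2 fold changes there were -0.17, -0.22 and -0.54. In that comparison 2.84% of all genes were called. Without the filter on low counts the adjusted p-values were 0.0740, 0.0575 and 0.111 in the same order, at log2 fold changes of -0.23, -0.28 and -0.53. Without PIG-LONA replicate 1, 13.9% of all genes and 8 members were called, namely BST2, IFI16, IFI6, IFITM2, SP100 and TRIM22 lower and EIF2AK2 and PARP14 higher.

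**Figure D3:**
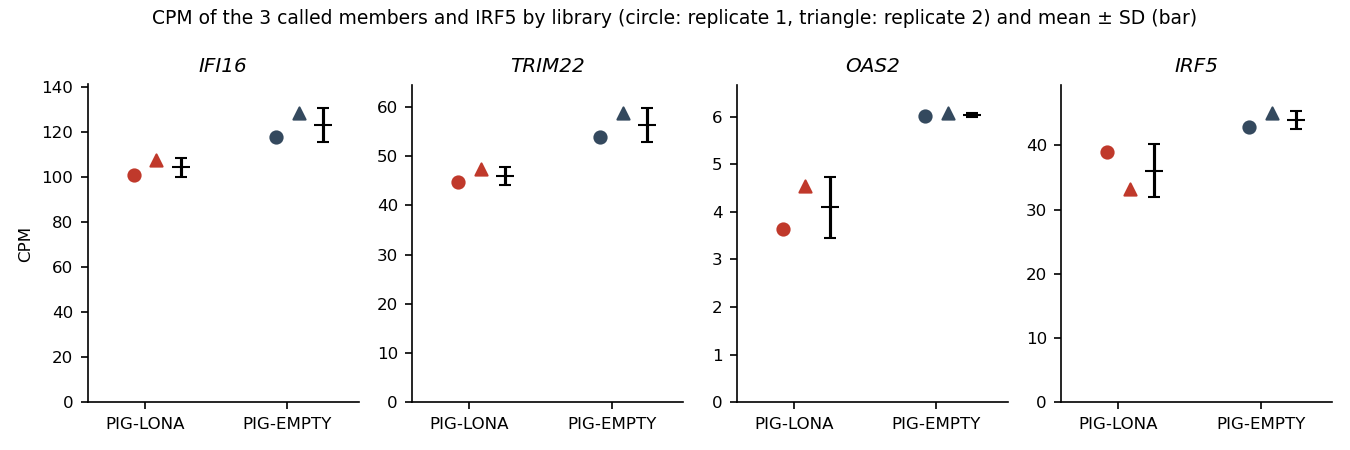
CPM of IFI16, TRIM22, OAS2 and IRF5 in each library (circle, replicate 1; triangle, replicate 2), with the mean and SD of each group as bars, axes starting at 0. In each panel both PIG-LONA libraries lie below both PIG-EMPTY libraries; OAS2 has means of 4.10 ± 0.643 and 6.04 ± 0.0382 CPM.

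Among the other proteins of nuclear bodies and DNA sensing, SP100 and PML, which build the PML bodies, missed the threshold. SP100 had 51.7 and 52.7 CPM in PIG-LONA cells against 56.2 and 60.3 CPM in PIG-EMPTY cells, with an adjusted p of 0.0659. PML had 62.6 and 62.5 CPM against 67.4 and 68.3 CPM, with an adjusted p of 0.152. In both genes the groups did not overlap. SP110, a nuclear body protein beside SP100 on chromosome 2, had 19.3 and 21.4 CPM in PIG-LONA cells against 18.9 and 19.2 CPM in PIG-EMPTY cells, so its values lay the other way.

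The 3 relatives of OAS2 did not pass the test. OAS1, which also makes oligoadenylate, had 1.34 and 1.59 CPM in PIG-LONA cells against 1.48 and 1.85 CPM in PIG-EMPTY cells. OAS3 had 2.91 and 4.27 CPM against 4.57 and 3.94 CPM, and OASL, a relative without synthetase activity, had 0.568 and 0.494 CPM against 0.604 and 0.523 CPM. The groups overlapped for each of them. OAS1, OAS3 and OAS2 are neighbours on chromosome 12, and reads shared by such related genes may be dropped or split, which was not tested.

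The 4 IFIT genes, whose proteins bind foreign RNA and block its translation, form a cluster of 137 kilobases on chromosome 10. None passed the test, and 1 was lower and 0 higher at an unadjusted p under 0.05. IFIT1 had 13 and 21 counts in PIG-LONA libraries against 25 and 28 counts in PIG-EMPTY libraries, with a log2 fold change of -0.77 ± 0.33 and an adjusted p of 0.208. Its interval ran from -1.47 to -0.07, so these counts leave its size poorly fixed. IFIT3 had 9.76 and 9.86 CPM against 10.3 and 9.67 CPM. IFIT2 had 1.54 and 1.35 CPM against 1.58 and 1.42 CPM, and IFIT5 had 2.57 and 2.52 CPM against 2.52 and 2.86 CPM. The groups overlapped for IFIT2, IFIT3 and IFIT5.

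The proteins that sense or edit double-stranded RNA gave 0 calls, with 0 lower and 1 higher at an unadjusted p under 0.05. ADAR had 412 and 444 CPM in PIG-LONA cells against 429 and 430 CPM in PIG-EMPTY cells. Its log2 fold change was -0.0045 with a 95% interval from -0.084 to 0.075. EIF2AK2 encodes PKR, the kinase that halts translation, and had 41.4 and 46.1 CPM against 40.8 and 39.6 CPM (adjusted p = 0.233). IFIH1, the RNA sensor MDA5, had 9.49 and 9.78 CPM against 8.66 and 8.93 CPM, and the helicase DDX60 had 8.12 and 9.73 CPM against 9.71 and 8.81 CPM. IFIH1 and EIF2AK2 had both PIG-LONA libraries above both PIG-EMPTY libraries, while ADAR and DDX60 overlapped.

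Restriction of virus entry and release also gave 0 calls among 3 tested genes, with 1 lower at an unadjusted p under 0.05. BST2 had 156 and 147 CPM in PIG-LONA cells against 164 and 162 CPM in PIG-EMPTY cells, a log2 fold change of -0.11 ± 0.04 with an adjusted p of 0.14. IFITM2 had 84.3 and 77.4 CPM against 86.7 and 85.7 CPM (adjusted p = 0.289). IFITM3, which acts on endosomes, had 10.5 and 9.18 CPM against 10.2 and 10.0 CPM. BST2 and IFITM2 lay lower without overlap, by little, and IFITM3 overlapped. IFITM1 shares 32.5% of its exon bases with IFITM2 on the same strand, so its few counts are uncertain. The shared bases make up 22.7% of those of IFITM2, so its level per length is also less certain.

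Of the 9 other antiviral effectors only TRIM22 was called. TRIM5, its neighbour on chromosome 11 and a sensor of retroviral capsids, had 14.6 and 14.0 CPM in PIG-LONA cells against 14.9 and 14.4 CPM in PIG-EMPTY cells. TRIM25, a ubiquitin ligase of the RIG-I pathway, had 87.8 and 88.8 CPM against 82.0 and 82.5 CPM (adjusted p = 0.18). MX2, which blocks nuclear import of retroviruses, had 57.2 and 57.7 CPM against 60.3 and 62.9 CPM (adjusted p = 0.258). The groups did not overlap for TRIM25 and MX2, in opposite directions, and TRIM5 overlapped. MX1, a GTPase active against influenza viruses, had 1.80 and 1.74 CPM against 2.05 and 1.57 CPM. RSAD2, which encodes viperin, had 16 and 15 counts against 15 and 19 counts. CMPK2, a mitochondrial nucleotide kinase next to RSAD2, had 8.19 and 8.09 CPM against 8.56 and 7.45 CPM. The groups overlapped for MX1 and CMPK2. SAMD9 and SAMD9L, neighbours on chromosome 7, restrict poxviruses. SAMD9 had 15.2 and 18.4 CPM against 15.5 and 16.6 CPM, and SAMD9L had 11.9 and 14.0 CPM against 12.8 and 13.7 CPM, with overlap in both.

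ISG15 is a small modifier protein attached to others by HERC5 and removed by USP18, and this system gave 0 calls and no gene at an unadjusted p under 0.05. ISG15 had 4.08 and 4.21 CPM in PIG-LONA cells against 4.16 and 4.80 CPM in PIG-EMPTY cells. USP18, also a brake on the receptor, had 5.78 and 5.90 CPM against 5.94 and 5.26 CPM. HERC5 had 3.84 and 4.42 CPM against 5.27 and 3.94 CPM, and HERC6 had 4.58 and 4.32 CPM against 5.00 and 5.14 CPM (adjusted p = 0.481). Of these only HERC6 had groups that did not overlap.

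The transcription factors of the response showed 0 calls, with 1 higher at an unadjusted p under 0.05. IRF7, which drives interferon alpha genes, had 7.58 and 6.84 CPM in PIG-LONA cells against 5.47 and 6.37 CPM in PIG-EMPTY cells, the highest log2 fold change of any tested member at 0.27 ± 0.12 (adjusted p = 0.229). STAT2 had 31.5 and 31.3 CPM against 32.9 and 31.1 CPM. IRF1 had 31.5 and 29.1 CPM against 29.5 and 32.5 CPM, and IRF9 had 1.37 and 1.56 CPM against 1.98 and 1.48 CPM. STAT2, IRF1 and IRF9 overlapped between groups. IRF9 shares 48.4% of its exon bases with another gene on the same strand, and reads in the shared part cannot be assigned to either. XAF1 (38.3%), IRF1 (22.0%), IFITM3 (21.3%) and SP110 (18.4%) share exon bases with a gene on the opposite strand, and whether the counting kept those strands apart is not stated.

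The remaining members act in other ways and gave 0 calls, with 1 lower and 0 higher at an unadjusted p under 0.05. IFI6, a mitochondrial protein that opposes cell death, had 7.48 and 6.24 CPM in PIG-LONA cells against 7.89 and 8.65 CPM in PIG-EMPTY cells (adjusted p = 0.174). IFI27 had 10 and 11 counts against 19 and 15 counts, the lowest log2 fold change of the tested members at -0.82 ± 0.41 (adjusted p = 0.297). PARP14, an ADP-ribosyltransferase, had 25.2 and 28.0 CPM against 24.2 and 24.3 CPM (adjusted p = 0.274). In these 3 genes the groups did not overlap, with PARP14 the higher in PIG-LONA cells. PARP9, its neighbour on chromosome 3, had 6.85 and 7.44 CPM against 7.49 and 6.19 CPM. XAF1, which promotes apoptosis, had 34.6 and 38.8 CPM against 35.7 and 36.6 CPM. IFI35 had 16.2 and 14.1 CPM against 15.6 and 15.2 CPM. PARP9, XAF1 and IFI35 overlapped between groups.

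**Figure D4:**
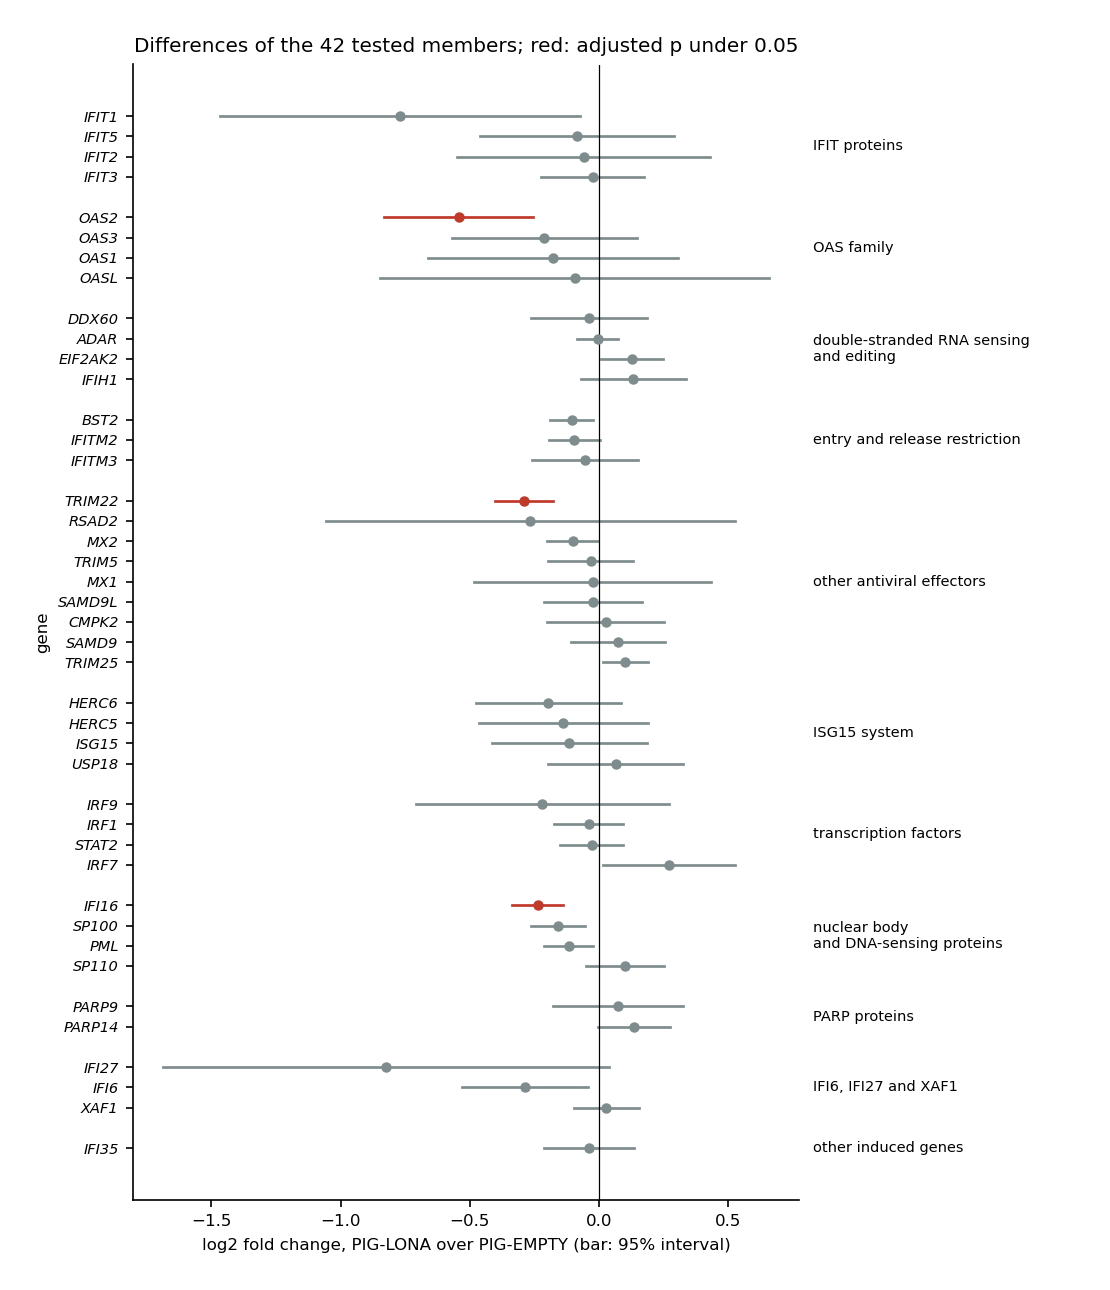
Log2 fold change of PIG-LONA over PIG-EMPTY for the 42 tested members, grouped by role, with 95% intervals per gene as bars. IFI16, TRIM22 and OAS2 (red) passed an adjusted p of 0.05; the widest bars belong to genes with few counts, such as IFI27 and IFIT1.

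Log2 fold changes were below 0 for 31 of 42 tested members (73.8%), against 49.6% of all tested genes. The median was -0.057, against 0.0011 over all, and without PIG-EMPTY replicate 1 it was -0.012. Leaving out 1 library at a time gave between 24 and 31 members below 0. Both PIG-LONA libraries lay below both PIG-EMPTY libraries for 12 members and above for 6, 42.9% together against 48.0% of all genes. Summed over the 47 members, the level was 1402 and 1446 CPM in PIG-LONA libraries against 1470 and 1489 CPM in PIG-EMPTY libraries. The means were 1424 ± 31.3 and 1479 ± 13.4 CPM (SD, n = 2 each), and this sum has no test. On average over libraries, 54.1% of the sum came from ADAR, BST2, IFI16 and TRIM25, so it mostly reflects a few abundant genes. The data also bound how large a difference could be. The 95% interval lay inside a 1.5-fold change either way for 35 members (83.3%, against 72.2% of all genes) and inside a 2-fold change for 39 (92.9%, against 87.3%). It lay inside a 1.2-fold change for 19 members (45.2%, against 48.6%). For the other members the interval reached beyond 1.2-fold.

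**Figure D5:**
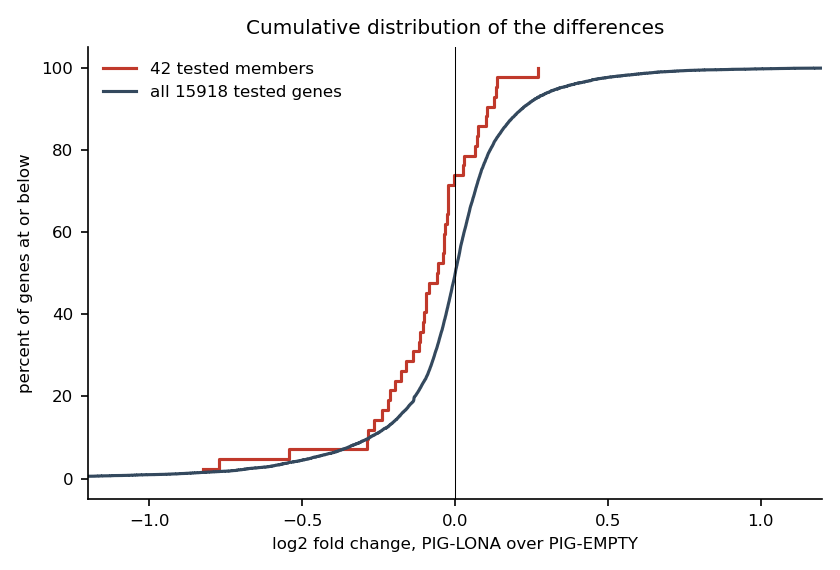
Cumulative percent of genes at or below each log2 fold change of PIG-LONA over PIG-EMPTY, for the 42 tested members (red) and all 15918 tested genes (blue). The red line crosses 0 at 73.8% and the blue line at 49.6%, and no member exceeds 0.27.

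The pathway around the members was read from 101 further genes, of which 67 were tested, 4 were lower in PIG-LONA cells (5.97%, against 3.51% of all genes called lower and 6.44% called either way) and 0 were higher. At an unadjusted p under 0.05, 17 were lower and 1 higher, 26.9% together against 18.7% of all genes. The pathway lists were chosen with earlier results of these data known, so their shares here and below are descriptions only. The groups did not overlap for 40 of the 67 (59.7%, against 48.0%). DESeq2 called 1 of the 67 lower and 0 higher, against 2.97% of all genes called either way. With limma-voom 3 of the 67 were lower and 0 higher, against 6.26% of all genes called either way. Of the 21 interferon genes themselves, none had more than 1 count in any library. Their summed counts were 2 and 0 in PIG-LONA libraries and 1 and 1 in PIG-EMPTY libraries. Interferon transcripts were thus not detectable above the floor of 3 counts in either group.

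Receptor and kinase transcripts were present. Of 9 genes for receptors and kinases, 8 were tested and 0 were called, with 1 lower at an unadjusted p under 0.05 and 0 calls by DESeq2 or limma-voom. IFNAR1 had 62.0 and 62.5 CPM in PIG-LONA cells against 66.9 and 65.5 CPM in PIG-EMPTY cells (adjusted p = 0.323). IFNAR2 had 32.8 and 32.6 CPM against 34.1 and 34.5 CPM (adjusted p = 0.563). IFNGR1, a chain of the interferon gamma receptor, had 37.0 and 36.6 CPM against 36.5 and 34.9 CPM (adjusted p = 0.74). The differences in all 3 were a few CPM.

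Of 17 sensors and adaptors, 13 were tested and 1 was lower, IRF5 (7.69%, against 3.51% of all genes called lower). At an unadjusted p under 0.05, 5 were lower and 1 higher (46.2%, against 18.7% of all genes). IRF5, a transcription factor downstream of Toll-like receptors, had 39.0 and 33.2 CPM in PIG-LONA cells against 42.9 and 45.0 CPM in PIG-EMPTY cells, with a log2 fold change of -0.29 ± 0.06 (adjusted p = 0.00727). The log2 fold change was -0.17 without PIG-LONA replicate 2 and -0.41 without PIG-LONA replicate 1. The adjusted p was 0.0673 without PIG-LONA replicate 2 and 0.0529 without PIG-EMPTY replicate 2. It was 0.131 when genes with low counts were also tested. The 7 brakes on interferon signalling, among them SOCS1, SOCS3 and PTPN6, gave 0 calls by edgeR, DESeq2 and limma-voom, and 0 at an unadjusted p under 0.05.

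Of 47 further interferon-induced genes, 39 were tested, 3 were lower (7.69%, against 3.51% of all genes called lower) and 0 higher, with a median log2 fold change of -0.093, against 0.0011 over all genes. At an unadjusted p under 0.05, 11 were lower and 0 higher (28.2%, against 18.7%). The groups did not overlap for 25 of the 39 (64.1%, against 48.0%). PSMB9, an immunoproteasome subunit on chromosome 6, had 23.1 and 23.0 CPM in PIG-LONA cells against 26.6 and 27.5 CPM in PIG-EMPTY cells (adjusted p = 0.028). TNFSF10, the death ligand TRAIL, had 18.3 and 18.2 CPM against 21.2 and 22.0 CPM (adjusted p = 0.0402). UBA7, the enzyme that activates ISG15, had 22.7 and 21.9 CPM against 27.2 and 24.9 CPM (adjusted p = 0.0475). All 3 stood lower in both PIG-LONA libraries, by log2 fold changes of -0.23, -0.24 and -0.23. Leaving out PIG-EMPTY replicate 1 gave adjusted p-values of 0.0987, 0.115 and 0.482 in the same order, and leaving out PIG-EMPTY replicate 2 gave 0.307, 0.369 and 0.0575. Without PIG-LONA replicate 2 the values of TNFSF10 and UBA7 were 0.0725 and 0.113. With DESeq2 the adjusted p-values of PSMB9, TNFSF10 and UBA7 were 0.221, 0.288 and 0.290.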

How the data were processed

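RNA-seq of 2 PIG-LONA and 2 PIG-EMPTY libraries of OCI-AML3 cells was used, made with a directional kit per the labels' protocols. The deposited table holds raw counts of reads per Ensembl gene and library. The build hg38 and the tools HTSeq, STAR 2.5 and FastQC 0.11.4 come from the submitters' processing notes; neither the annotation release nor the strand setting of the counting is stated in these sources. Symbols came from the reference tables and coordinates from GENCODE 29. Rows without a symbol held 0.0723% of counts.

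Genes kept by filterByExpr (minimum count 10, minimum total 15) were tested with edgeR 4.0.16 (R 4.3.3; TMM, quasi-likelihood F test, two-sided, Benjamini-Hochberg over all tested genes, adjusted p under 0.05). CPM are counts over TMM-scaled totals. The standard error is the fold change over the root of F, and 95% intervals are unadjusted. DESeq2 1.42.0, limma 3.58.1 (voom), other scalings and filters, a replicate block, leaving out each library and leaving out chromosome 6 were alternatives. Intervals and floors cover counting and replicate error of these libraries only. The edgeR fit was tested on simulated counts with known changes. It recovered 44% of 1.2-fold, 70% of 1.5-fold, 94% of 2-fold and 100% of 4-fold changes, among 50, 50, 50 and 47 tested genes. Of 165 calls in the simulated counts, 14 were false. The simulation gave both groups the same spread per gene, whereas the real replicates lay further apart in PIG-LONA cells. These shares therefore need not hold for the real counts.

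Members and lists were chosen with earlier results of these data known. Given in full were called genes, members at an unadjusted p under 0.05, the 3 most abundant per length, the member with the lowest p of each role, and IFNAR1, IFNAR2 and IFNGR1. A further pathway gene is not reported here. Other members are given with their values as part of their role. Over all tested genes, same-numbered libraries did not deviate together (correlation 0.046), and the main fit does not pair them. This value cannot show that the transductions were unpaired. A fit with the replicate number as a block is therefore given below.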

Additional observations from a re-analysis of the deposited data

How the results depend on the processing

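The count of members lower in PIG-LONA cells was 2 to 4 under every alternative that kept all 4 libraries, except without a filter on low counts, where it was 0 of a larger set of tested genes. In that setting 334 genes were called and 0 pathway genes were lower. DESeq2's test called 473 genes and 1 pathway gene lower, and gave no adjusted p for 7 members. Without chromosome 6, 660 genes (4.37%) were called and 1 pathway gene was lower. PSMB9 lies on chromosome 6 and so was not tested in that setting. There TNFSF10 and UBA7 had log2 fold changes of -0.23 and -0.22, with adjusted p-values of 0.0582 and 0.0700 by edgeR. Leaving out 1 library at a time gave 0 to 6 members lower, 0 to 2 higher, a median log2 fold change of -0.083 to -0.012, 466 to 2331 genes called, and 0 to 9 pathway genes lower and 0 to 2 higher. The lone library left in a group is then assumed to vary like the other group. Fits with the replicate number as a block called 1101 genes and 4 members lower (SP100 added), with a median of -0.052. The sign of values near 0 turned for ADAR without a filter (0.0044) and without chromosome 6 (0.0013). Leaving out 1 library gave ADAR -0.060 to 0.050 and IFI35 -0.13 to 0.070. The cause of these shifts was not tested. Counts limit IFIT1, IFI27, RSAD2 and the untested members.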
